A study of Mus musculus with 18 samples.

Results

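The 7 genes described here are genes typical of migratory dendritic cells, namely Ccr7, Flt3, Fscn1, Ccl17, Ccl22, Zbtb46 and Il12b. They were chosen by symbol, and all 7 were found among 32789 genes in the table and among the 12900 genes with enough counts to test. Dendritic cells take up antigen in the lung and other tissues, and those that mature and leave for the draining lymph node switch on a shared set of genes. In that set, CCR7 is the chemokine receptor that guides them along lymphatic vessels, fascin bundles the actin of their long processes, and CCL17 and CCL22 attract T cells that carry the receptor CCR4. Alveolar macrophages carry CD11c on their surface, as dendritic cells do, so selection on CD11c does not separate the cell types.

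RNA was measured by polyA RNA sequencing of alveolar macrophages that were washed from mouse lungs and picked out on magnetic columns with CD11c MicroBeads. The knockout groups carried CD11c-Cre, a recombinase made in CD11c-positive cells, and were labelled Vhl-Hif1-KO, Vhl-Hif2-KO and Vhl-Hif1-Hif2-KO. Each had its own control, labelled Vhl-Hif1a_flox-flox, Vhl-Hif2a_flox-flox or Vhl-Hif1-Hif2a_flox-flox, and the labels do not say whether these controls carried Cre. There were 3 libraries in each of the 6 groups, 18 in all, and the labels give no age, sex or strain of the mice. The product of Vhl tags the HIF alpha subunits for breakdown, and Hif1a and Hif2a (gene symbol Epas1) encode those subunits. By the labels, all 3 knockouts therefore lack Vhl and differ in which HIF subunit is also deleted.

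Gene counts summed to 19230000 to 34015000 per library. Vhl averaged 2.25 ± 0.297 CPM (the counts of a gene scaled to library size; SD, n = 3) in the libraries labelled Vhl/Hif2a knockout and 18.7 ± 1.30 CPM in their controls, and it was also lower in the other two knockouts. Counts of the HIF genes did not follow the labels. In the Vhl/Hif2a cross, Hif1a averaged 66.3 ± 10.8 CPM in the libraries labelled Vhl/Hif2a knockout and 217 ± 33.3 CPM in their controls, and Epas1 averaged 54.2 ± 5.55 CPM in these knockout libraries and 27.6 ± 6.47 CPM in their controls. In the Vhl/Hif1a knockout Hif1a was not called (log2 fold change -0.24, edgeR adjusted p = 0.662), and in the triple knockout neither Hif1a (0.19, adjusted p = 0.565) nor Epas1 (-0.24, adjusted p = 0.513) was. Counts over a whole gene include exons outside a deleted part, so they do not check these deletions, and all groups are named below as labelled. Some libraries stood apart in the 7 genes. Libraries 1 and 2 of the Vhl/Hif2a control held the highest levels of the series for Ccr7, Flt3, Ccl22, Zbtb46 and Il12b. Library 2 of the triple control was the highest of its group for all 7 genes. Calls among the 7 genes that rest on Vhl/Hif2a controls 1 and 2 are given with and without them. Changes that rest on triple control 2 are given without it for some of the genes only. Correlations, rankings by likeness and ratios to Ccr7 were taken with all 18 libraries only.

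Promoters of 6 of the 7 genes were found in RefSeq on GRCm38.p6, as windows of 300 bases that begin 250 bases before a RefSeq start. That start is the gene start given below for Flt3, Ccl17 and Il12b, and lies 12 bases after it for Fscn1 and 94 bases after it for Ccl22. For Zbtb46 it lies 35038 bases inside the gene, so that window does not cover the gene start given below and enters only the count of windows. The windows were searched on both strands for ACGTG and GCGTG, the core letters of the hypoxia response element to which HIF binds. A match was present in 4 of the 6 windows, and in 43.8% of the 32851 windows of that length in the table. The 6 include the Zbtb46 window, which held no match. Windows of 4 genes with a match and of Il12b, the gene with the largest change, are shown because these genes were compared under loss of Vhl and HIF subunits. Capitals mark the matched letters, each window is written 5′ to 3′ along its gene, and a match describes the letters and shows no binding.
Flt3: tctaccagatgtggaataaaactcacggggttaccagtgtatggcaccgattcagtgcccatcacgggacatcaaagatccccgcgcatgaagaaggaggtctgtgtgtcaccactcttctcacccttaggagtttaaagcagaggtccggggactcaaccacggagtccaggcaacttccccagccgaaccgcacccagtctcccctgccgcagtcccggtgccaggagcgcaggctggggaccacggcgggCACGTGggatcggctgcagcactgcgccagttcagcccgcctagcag
Fscn1: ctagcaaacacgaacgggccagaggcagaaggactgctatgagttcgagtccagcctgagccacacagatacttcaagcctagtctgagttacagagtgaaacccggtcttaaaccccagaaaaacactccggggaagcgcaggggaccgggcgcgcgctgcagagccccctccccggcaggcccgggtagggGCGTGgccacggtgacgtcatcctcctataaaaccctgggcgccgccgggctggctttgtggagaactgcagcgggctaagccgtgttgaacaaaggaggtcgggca
Ccl17: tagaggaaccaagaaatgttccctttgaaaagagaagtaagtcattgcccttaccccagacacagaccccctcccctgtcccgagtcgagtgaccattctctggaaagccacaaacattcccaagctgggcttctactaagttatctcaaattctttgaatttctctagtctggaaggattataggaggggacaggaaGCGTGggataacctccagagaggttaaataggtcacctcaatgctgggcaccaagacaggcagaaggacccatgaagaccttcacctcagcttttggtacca
Ccl22: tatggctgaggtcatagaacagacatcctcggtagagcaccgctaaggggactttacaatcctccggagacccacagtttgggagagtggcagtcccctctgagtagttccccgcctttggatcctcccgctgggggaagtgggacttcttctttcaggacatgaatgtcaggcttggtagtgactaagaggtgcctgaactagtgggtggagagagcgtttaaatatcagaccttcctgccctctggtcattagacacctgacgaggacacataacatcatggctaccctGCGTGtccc
Il12b: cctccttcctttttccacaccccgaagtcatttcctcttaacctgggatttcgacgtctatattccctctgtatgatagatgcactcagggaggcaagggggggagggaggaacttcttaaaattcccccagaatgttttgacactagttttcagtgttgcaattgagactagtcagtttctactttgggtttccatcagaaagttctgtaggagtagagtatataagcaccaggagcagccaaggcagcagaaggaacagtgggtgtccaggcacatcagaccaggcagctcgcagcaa
The windows lie at chr5:147400440-147400739 on the minus strand for Flt3, chr5:142960105-142960404 on the plus strand for Fscn1, chr8:94810203-94810502 on the plus strand for Ccl17, chr8:94745434-94745733 on the plus strand for Ccl22 and chr11:44399813-44400112 on the plus strand for Il12b. In Flt3 the matches on both strands overlap in the palindrome CACGTG just after the start, and the Fscn1 and Ccl17 windows each held 1 GCGTG, at positions -57 and -52 from the start. The Ccl22 match began 42 bases after the start, and the Il12b window held neither motif.

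Levels per kilobase of exon were compared between genes, over all 18 libraries. The chemokine genes stood highest, with medians of 10.7 CPM per kb for Ccl22 and 9.16 CPM per kb for Ccl17. Ccr7 had a median of 3.34 and Fscn1 of 2.36 CPM per kb, and Il12b, Flt3 and Zbtb46 followed at 0.502, 0.344 and 0.161 CPM per kb. All values from here on are CPM without length scaling. For all 7 genes the highest group mean was that of the Vhl/Hif2a control. For 6 of them the lowest was that of the libraries labelled Vhl/Hif2a knockout, and for Ccl22 it was that of the Vhl/Hif1a knockout. When the 6 groups were ordered by mean, neighbouring groups overlapped at every step but the last for Ccr7, Flt3, Fscn1, Ccl17, Ccl22 and Il12b. The exception was Zbtb46, whose only gap between neighbours lay between the Vhl/Hif1a knockout and the group above it, the Vhl/Hif1a control.

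**Figure D1:**
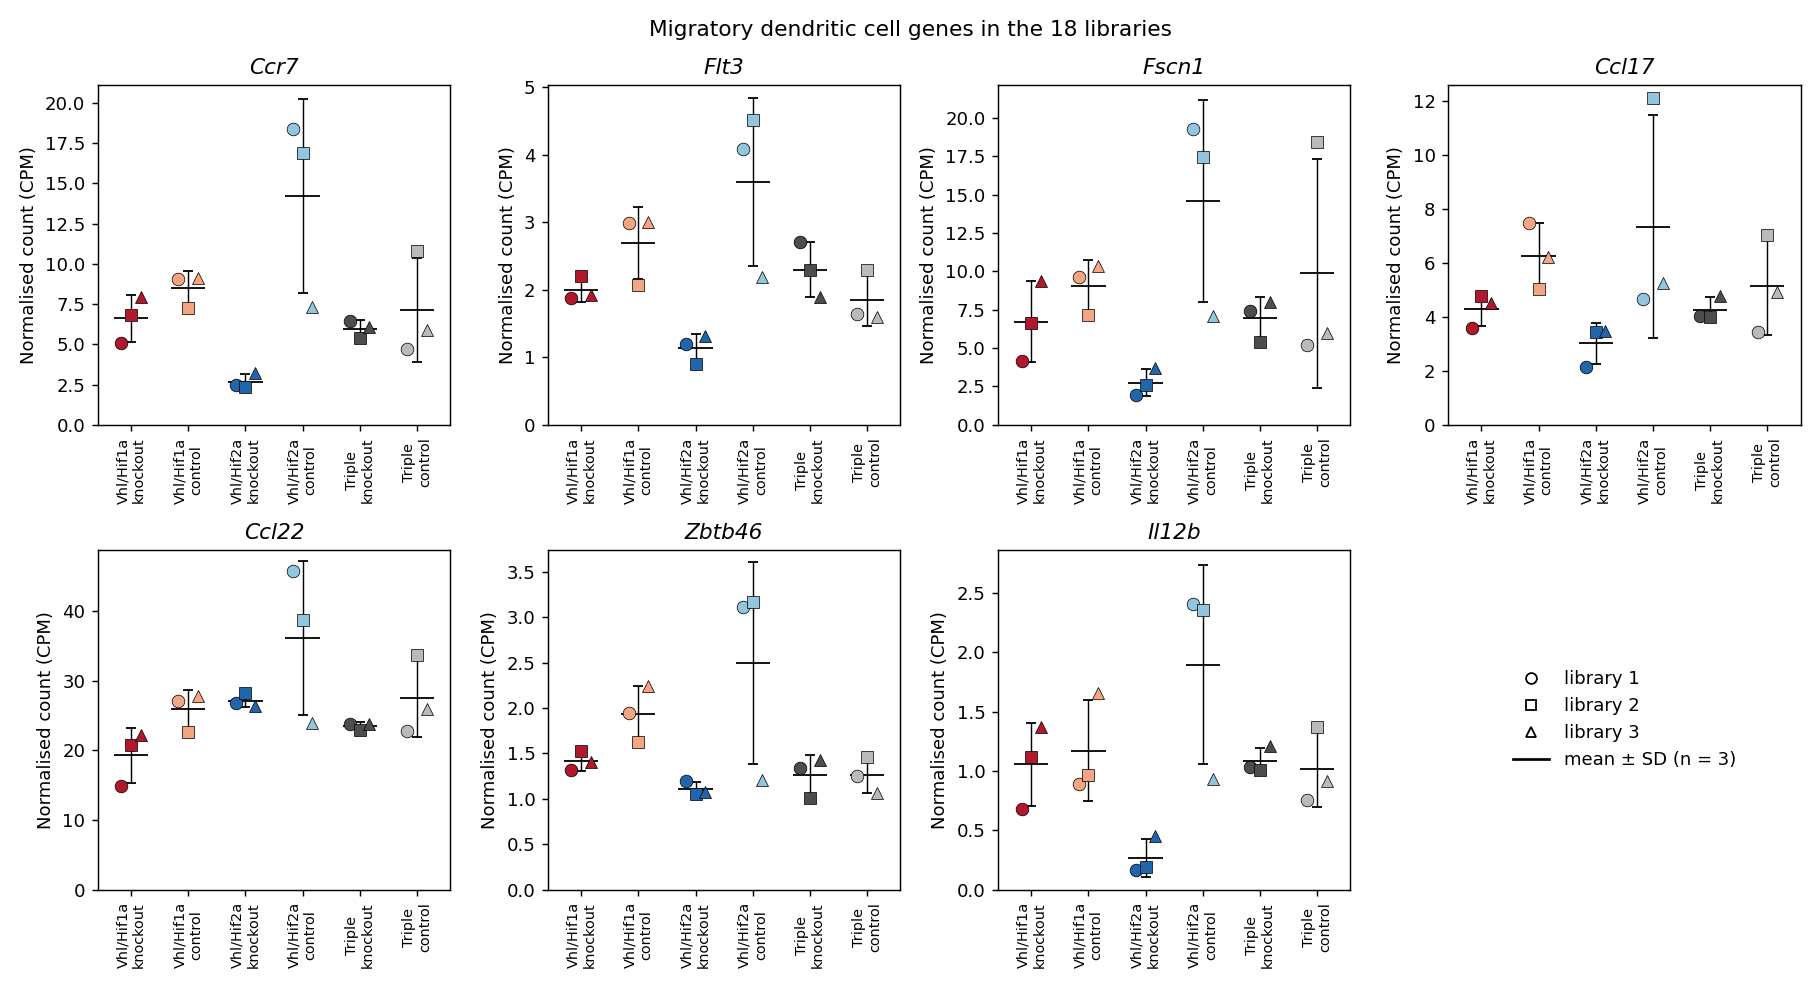
Normalised counts (CPM, linear axes from 0) of the 7 genes in each of the 18 libraries by group, with the mean and SD of 3 libraries; circles, squares and triangles are libraries 1, 2 and 3. The libraries labelled Vhl/Hif2a knockout lie lowest for Ccr7, at 2.33 to 3.23 CPM, and libraries 1 and 2 of their control lie highest, at 18.4 and 16.9 CPM.

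In the libraries labelled Vhl/Hif2a knockout, 6 of the 7 genes fell against their control and Ccl22 did not pass the test. A gene was called where its edgeR p, adjusted over all 12900 genes, was under 0.05, and 7.01% of all genes were called lower in this comparison (14.7% in either direction) against 85.7% of these 7. The same 6 genes had groups without overlap, as did 16.6% of all genes in this direction. The median log2 fold change of the 7 was -1.66, and that of all tested genes was 0.0032. In RNA from a mixed sample, fewer cells of a type and less RNA per cell cannot be told apart.

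Both receptor genes fell. Ccr7 (ENSMUSG00000037944, chr11:99144196-99155077 on GRCm38, minus strand) had 2.48, 2.33 and 3.23 CPM in the libraries labelled Vhl/Hif2a knockout, against 18.4, 16.9 and 7.30 CPM in controls 1, 2 and 3. Every knockout library lay below every control, and control 3 lay far below the other two controls. The log2 fold change was -2.40 ± 0.33 (SE, 95% interval -3.10 to -1.71, edgeR adjusted p = 6.5e-05). Flt3 (ENSMUSG00000042817, chr5:147330741-147400489, minus strand), the receptor tyrosine kinase whose ligand supports dendritic cell development, had 1.19, 0.900 and 1.32 CPM in these knockout libraries and 4.09, 4.52 and 2.18 CPM in the controls. Control 3 was again the lowest control, and the groups did not overlap (log2 fold change -1.66 ± 0.28, edgeR adjusted p = 4.75e-04). An antisense gene that overlaps Flt3 by 936 bases, Gm26597, had 0 counts in all 18 libraries.

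Fscn1 (ENSMUSG00000029581, chr5:142960343-142973185, plus strand) followed Ccr7 closely. It had 1.95, 2.61 and 3.71 CPM in the libraries labelled Vhl/Hif2a knockout and 19.3, 17.5 and 7.06 CPM in their controls, a log2 fold change of -2.40 ± 0.47 (edgeR adjusted p = 0.00191). Il12b (ENSMUSG00000004296, chr11:44400063-44414033, plus strand) encodes the p40 chain that IL-12 and IL-23 share, and it had the fewest reads. Its counts were 5, 6 and 15 in the knockout libraries and 47, 61 and 20 in the controls, which is 0.165, 0.186 and 0.448 CPM against 2.40, 2.35 and 0.929 CPM. The fold change was the largest of the 7 in size and among the least precise (log2 -2.80 ± 0.46, 95% interval -3.78 to -1.81, edgeR adjusted p = 4.69e-04).

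The chemokine genes Ccl22 (ENSMUSG00000031779, chr8:94745590-94751699) and Ccl17 (ENSMUSG00000031780, chr8:94810453-94812036) are neighbours on the plus strand, 58753 bases apart, and they did not keep the same pattern. Ccl17 had 2.15, 3.45 and 3.47 CPM in the libraries labelled Vhl/Hif2a knockout, against 4.65, 12.1 and 5.25 CPM in controls 1, 2 and 3. It was high in control 2 alone, and it passed the test (log2 fold change -1.28 ± 0.33, edgeR adjusted p = 0.0132). Ccl22 had 26.7, 28.2 and 26.4 CPM in the same knockout libraries and 45.7, 38.6 and 24.0 CPM in controls 1, 2 and 3. Control 3 lay below all 3 knockout libraries, and the difference did not pass the test (log2 fold change -0.41 ± 0.19, 95% interval -0.82 to -0.0044, edgeR adjusted p = 0.185). In control 1, Ccl22 was at its highest level of the series and Ccl17 at the lowest of its group.

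Zbtb46 (ENSMUSG00000027583, chr2:181387762-181459426, minus strand), a transcription factor of conventional dendritic cells, had 1.19, 1.06 and 1.08 CPM in the libraries labelled Vhl/Hif2a knockout and 3.12, 3.16 and 1.21 CPM in controls 1, 2 and 3. The knockout libraries lay close to control 3 and far below controls 1 and 2, and the difference passed the test (log2 fold change -1.17 ± 0.30, edgeR adjusted p = 0.0138). A small gene on the same strand, Gm22708, shares 103 bases with Zbtb46 and has no row in the table.

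**Figure D2:**
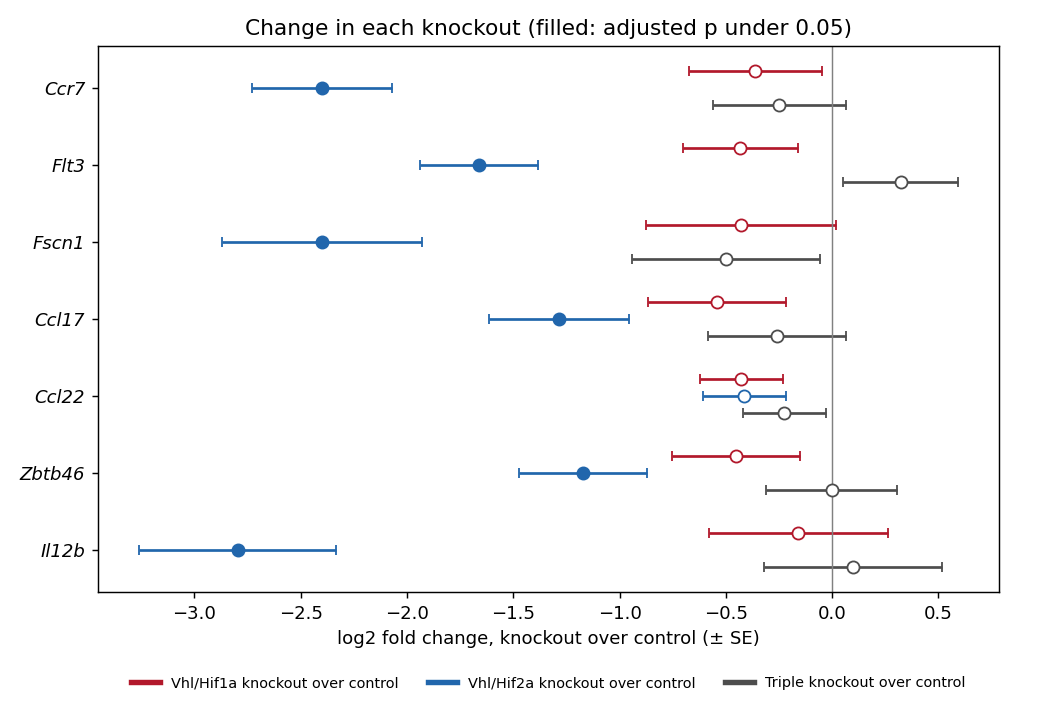
Log2 fold change of each gene (knockout over control, edgeR, bars are the SE) in the 3 crosses; filled points passed an adjusted p of 0.05. In the Vhl/Hif2a cross 6 of 7 points are filled, and in the other two crosses all points are open.

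With each library left out in turn, Ccr7, Flt3, Fscn1 and Il12b were called lower in all 6 fits. Ccl17 was not called without control 2 (log2 fold change -0.71, edgeR adjusted p = 0.126) or without knockout 1 (-1.09, adjusted p = 0.0785). Zbtb46 was not called without control 1 (-0.99, edgeR adjusted p = 0.0656) or without control 2 (-0.96, adjusted p = 0.0776). Ccl22 was called without control 3 (-0.64, edgeR adjusted p = 0.0184). With controls 1 and 2 both left out, a choice made after seeing the data that leaves 1 control and assumes it varies like the other groups, Ccr7 alone was called lower (-1.44, edgeR adjusted p = 0.0258). Il12b was then at -1.77 (adjusted p = 0.1), Fscn1 at -1.35 (adjusted p = 0.239), Flt3 at -0.94 (adjusted p = 0.126), Ccl17 at -0.79 (adjusted p = 0.249) and Zbtb46 at -0.13 (adjusted p = 0.911). Ccl22 changed sign to 0.18 (edgeR adjusted p = 0.767).

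**Figure D3:**
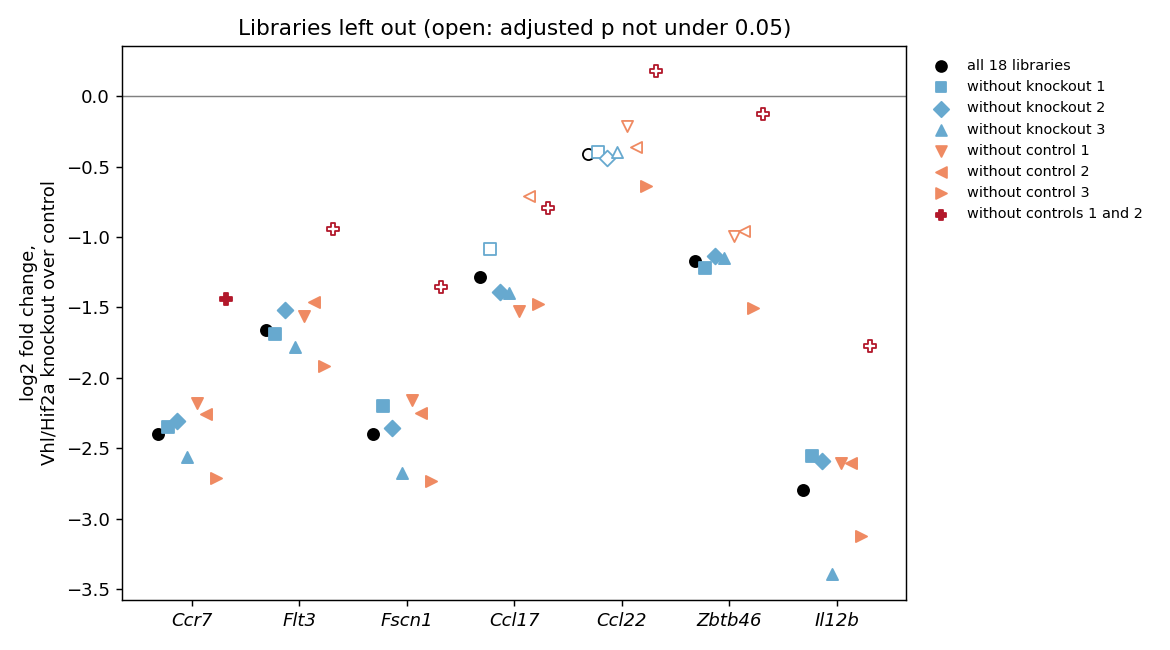
Log2 fold change of each gene, libraries labelled Vhl/Hif2a knockout over control, with all 18 libraries (black) and with 1 library or controls 1 and 2 left out; open points did not pass an adjusted p of 0.05. Without controls 1 and 2, Zbtb46 moves to -0.13 and Ccr7 to -1.44.

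In the Vhl/Hif1a knockout the 7 genes were lower than in the control on average, and none passed the test. Their log2 fold changes ran between -0.54 for Ccl17 and -0.16 for Il12b, with a median of -0.43. Ccl22 had 14.8, 20.7 and 22.2 CPM in the Vhl/Hif1a knockout and 27.1, 22.6 and 27.8 CPM in its control, groups that did not overlap (log2 fold change -0.43 ± 0.20, edgeR adjusted p = 0.358). Ccl17 and Zbtb46 also did not overlap, with 3.57 to 4.77 against 5.02 to 7.47 CPM and 1.31 to 1.53 against 1.63 to 2.24 CPM in knockout and control. Groups without overlap and lower in the knockout made up 12% of all genes tested. By edgeR and by DESeq2 0 of the 7 were called, against 3.64% of all genes by edgeR, and 1 of the 7, Ccl22, had an unadjusted edgeR p under 0.05. The 95% interval for Ccr7, -1.02 to 0.30, does not reach the change measured in the Vhl/Hif2a cross, and that for Fscn1 was -1.37 to 0.52.

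In the triple knockout the genes lay on both sides of their control and all groups overlapped. Ccr7 had 6.42, 5.38 and 6.10 CPM in the triple knockout and 4.71, 10.8 and 5.88 CPM in its control, where library 2 alone was high (log2 fold change -0.25 ± 0.31, 95% interval -0.91 to 0.41, edgeR adjusted p = 0.677). Fscn1 had 7.44, 5.38 and 8.03 CPM in the triple knockout and 5.20, 18.5 and 5.96 CPM in its control, again with control 2 apart. Without that library the log2 fold changes of Ccr7, Fscn1 and Ccl17 became 0.18, 0.32 and 0.037, against -0.25, -0.50 and -0.26 with it. Flt3, at 1.89 to 2.71 CPM in the triple knockout and 1.60 to 2.29 CPM in its control, had the highest log2 fold change, 0.32 ± 0.27 (edgeR adjusted p = 0.535). By edgeR and by DESeq2 0 of the 7 were called, as were 0.0388% of all genes by edgeR, and 0 of the 7 had an unadjusted edgeR p under 0.05.

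The difference between crosses was tested directly for each gene, as the change in one cross minus the change in another. Both comparisons with the Vhl/Hif2a cross use the same 6 libraries of that cross. Against the triple cross, Ccr7 (difference -2.15 ± 0.45 on the log2 scale, edgeR adjusted p = 0.00632), Flt3 (-1.98 ± 0.39, adjusted p = 0.00356) and Il12b (-2.90 ± 0.63, adjusted p = 0.00789) had a lower log2 fold change in the Vhl/Hif2a cross, where 3.08% of all genes were called lower and 7.99% in either direction. These 3 calls held with any 1 of the 12 libraries left out, and none held with controls 1 and 2 of the Vhl/Hif2a cross both left out. Fscn1, Zbtb46 and Ccl17 had differences of -1.90, -1.17 and -1.02, which did not pass (edgeR adjusted p = 0.0804, 0.107 and 0.182). The Fscn1 difference passed without triple control 2 (-2.72, edgeR adjusted p = 0.0031) and without Vhl/Hif2a control 3 (-2.23, adjusted p = 0.0367), and the Zbtb46 difference passed without Vhl/Hif2a control 3 (-1.50, adjusted p = 0.00957). Ccl22 had a difference of -0.19, with a 95% interval of -0.77 to 0.39.

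Against the Vhl/Hif1a cross, Ccr7 (difference -2.04 ± 0.45 on the log2 scale, edgeR adjusted p = 0.0197) and Il12b (-2.64 ± 0.63, adjusted p = 0.0312) had a lower log2 fold change in the Vhl/Hif2a cross, where 0.814% of all genes were called lower and 2.44% in either direction. The Ccr7 call was lost in 6 of the 12 fits that left out 1 library (Vhl/Hif2a knockouts 1 and 2, Vhl/Hif2a controls 1 and 2, Vhl/Hif1a knockout 3 and Vhl/Hif1a control 2), with edgeR adjusted p between 0.00184 and 0.0625 over all 12. The Il12b call was lost in those 6 and also without Vhl/Hif1a knockout 2 or Vhl/Hif1a control 1. Flt3 and Fscn1 had differences of -1.23 and -1.97 that did not pass (edgeR adjusted p = 0.134 and 0.162). Without Vhl/Hif2a control 3 the Flt3 difference passed as well. Ccl22 had a difference of 0.014 between the crosses, with a 95% interval of -0.57 to 0.59. Between the Vhl/Hif1a and triple crosses 0 of the 7 differed by edgeR or DESeq2, and 0 had an unadjusted edgeR p under 0.05, against 2.04% of all genes called by edgeR.

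The control groups themselves differed for these genes, though not past the threshold. Ccr7 averaged 14.2 ± 6.02 CPM in the Vhl/Hif2a control and 7.12 ± 3.22 CPM in the triple control (SD, n = 3 each, log2 fold change 1.0 ± 0.31, edgeR adjusted p = 0.0849), and 8.48 ± 1.09 CPM in the Vhl/Hif1a control. Flt3 averaged 3.60 ± 1.24 CPM in the Vhl/Hif2a control and 1.85 ± 0.384 CPM in the triple control (0.97 ± 0.27, edgeR adjusted p = 0.0585), and Zbtb46 averaged 2.50 ± 1.12 CPM in the Vhl/Hif2a control and 1.26 ± 0.194 CPM in the triple control (0.99 ± 0.30, adjusted p = 0.0813). Ranges of these genes overlapped, since control 3 of the Vhl/Hif2a cross lay near the triple controls. Between these 2 control groups edgeR called 0 of the 7 and 3.42% of all genes, 4 of the 7 had an unadjusted p under 0.05, and DESeq2 called Ccr7, Flt3 and Zbtb46. Without Vhl/Hif2a control 3, edgeR called the same 3 genes, without triple control 2 it called Ccr7 alone, and with controls 1 and 2 of the Vhl/Hif2a cross left out the Ccr7 difference was 0.041. Between the Vhl/Hif2a and Vhl/Hif1a controls edgeR and DESeq2 called 0 of the 7, 2 had an unadjusted edgeR p under 0.05 (Ccr7 and Ccl22), and edgeR called 0.341% of all genes. Between the Vhl/Hif1a and triple controls both tools called 0 of the 7, 0 had an unadjusted edgeR p under 0.05, and edgeR called 5.4% of all genes. The comparisons of the Vhl/Hif2a knockout above share this control group.

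Each gene was also set against Ccr7 within a library, as its counts per count of Ccr7, which removes a common rise or fall of both. Fscn1 kept its ratio, at 0.787 to 1.15 in the libraries labelled Vhl/Hif2a knockout and 0.968 to 1.05 in their controls. Ccl22 did not: 8.19 to 12.1 counts per Ccr7 count stood in those knockout libraries against 2.29 to 3.29 in their controls, and the 12 libraries of the other crosses lay between 2.80 and 4.85. The Zbtb46 ratio was 0.333 to 0.48 in those knockout libraries and 0.166 to 0.188 in their controls. The Flt3 ratio was 0.387 to 0.48 against 0.222 to 0.299, but the triple knockout, at 0.31 to 0.428, overlapped the knockout libraries of the Vhl/Hif2a cross. The Ccl17 ratio was 0.867 to 1.48 in the knockout libraries and 0.253 to 0.72 in the controls. For Il12b the ranges overlapped, 0.0667 to 0.139 against 0.127 to 0.14. These ratios describe unequal change within libraries and do not show that any of the genes stayed constant.

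**Figure D4:**
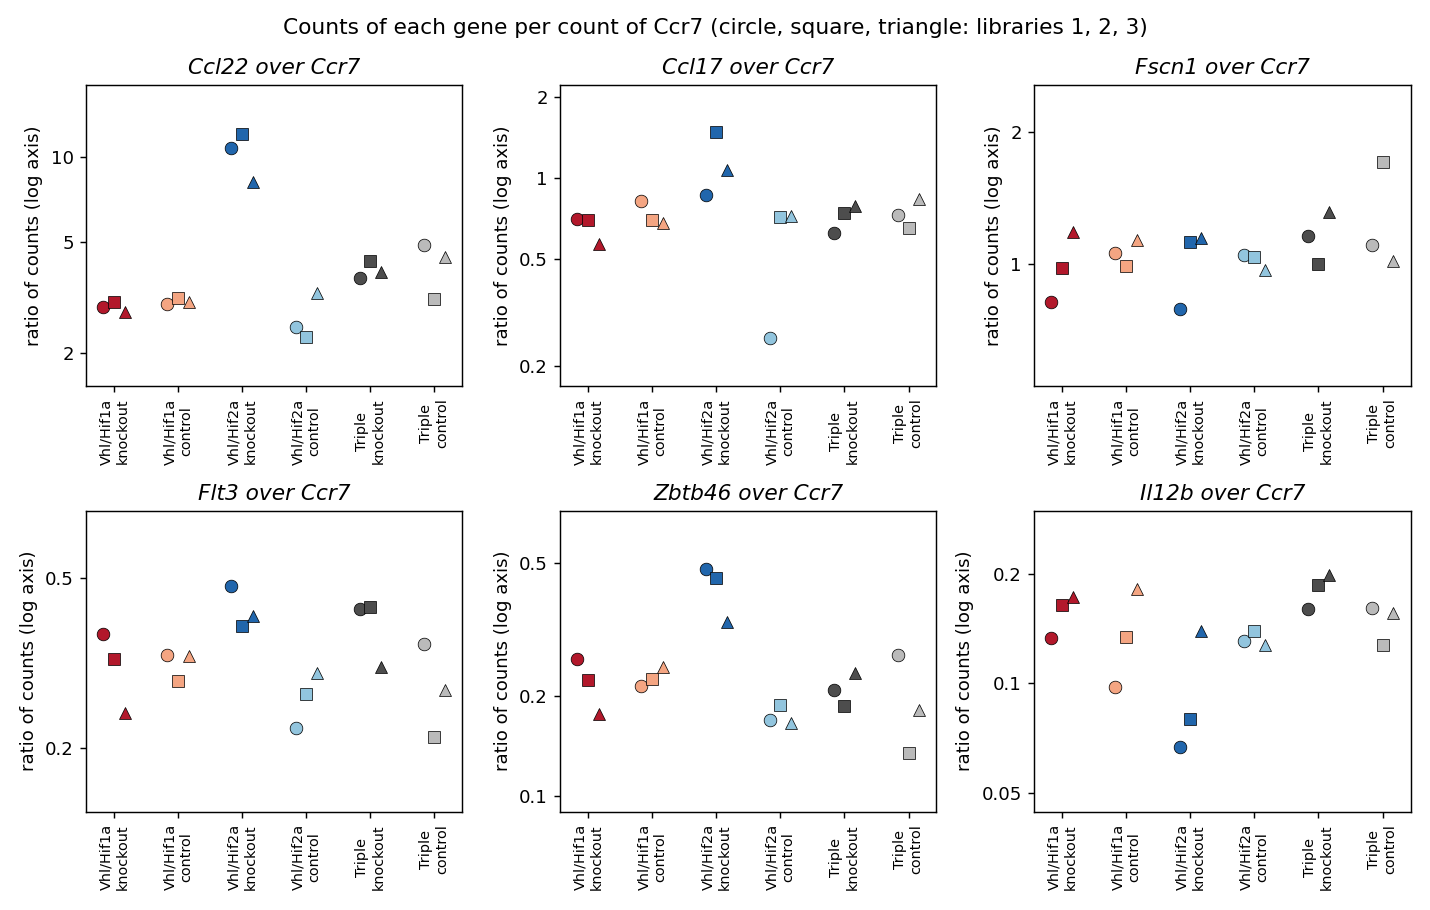
Counts of 6 genes per count of Ccr7 in each library (log axes), by group; circles, squares and triangles are libraries 1, 2 and 3. Ccl22 stands at 8.19 to 12.1 in the libraries labelled Vhl/Hif2a knockout and below 5 elsewhere, while Fscn1 stays near 1 in that cross.

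Across the 18 libraries the levels of Ccr7, log2(CPM + 0.5), ran closest to those of Fscn1 (Pearson r = 0.965) and Il12b (0.951) and furthest from those of Ccl22 (0.523). Libraries of a group share its condition, so r was also taken on deviations from the group mean. Ccl22 then followed Ccr7 (0.924), which means that the libraries with more Ccr7 within a group also held more Ccl22, while the step between the Vhl/Hif2a groups was not shared. Ccl17 showed the reverse, with 0.797 on levels and 0.551 on deviations. In 5 of 6 groups the library highest in Ccr7 was also highest in Fscn1, in Ccl22 and in Il12b, against 2 of 6 groups for Ccl17 and for Zbtb46. These values are descriptions over libraries that share depth and preparation, and carry no test.

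The genes whose levels were most like the mean of the 7 over the 18 libraries were Marcks (r = 0.946), Cacnb3 (0.942), Nr4a3 (0.936), Traf1 (0.928), Adcy6 (0.928), Stat4 (0.925), Gnb4 (0.915), Ccl5 (0.894), Zfp366 (0.884) and Cxcl16 (0.881). All 10 were called lower in the libraries labelled Vhl/Hif2a knockout and none in the other two knockouts, by edgeR. Because the 7 genes fell in that cross, genes chosen for a like profile had to fall there too. Of the 10, Cacnb3, Traf1, Adcy6, Stat4 and Ccl5 stood on a list of 40 other genes of migratory dendritic cells. Nr4a3, a nuclear receptor, had a log2 fold change of -2.53 ± 0.35 (edgeR adjusted p = 7.66e-05), and Cxcl16, a chemokine, one of -1.51 ± 0.22 (adjusted p = 1.47e-04). When group means were first subtracted, the 10 most alike were Marcks (0.965), Cacnb3 (0.941), Gpr132, Ciz1, Cd207, Fcho1, Hopx, Adam23, Adora2a and Gnb4, and 3 genes were on both rankings. In the second ranking, Fcho1 (2.20 ± 0.22, edgeR adjusted p = 2.07e-06) and Hopx (2.74 ± 0.24, adjusted p = 4.78e-07), were called higher in that same cross. They thus moved with the 7 genes between libraries of a group and against them between the groups.

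**Figure D5:**
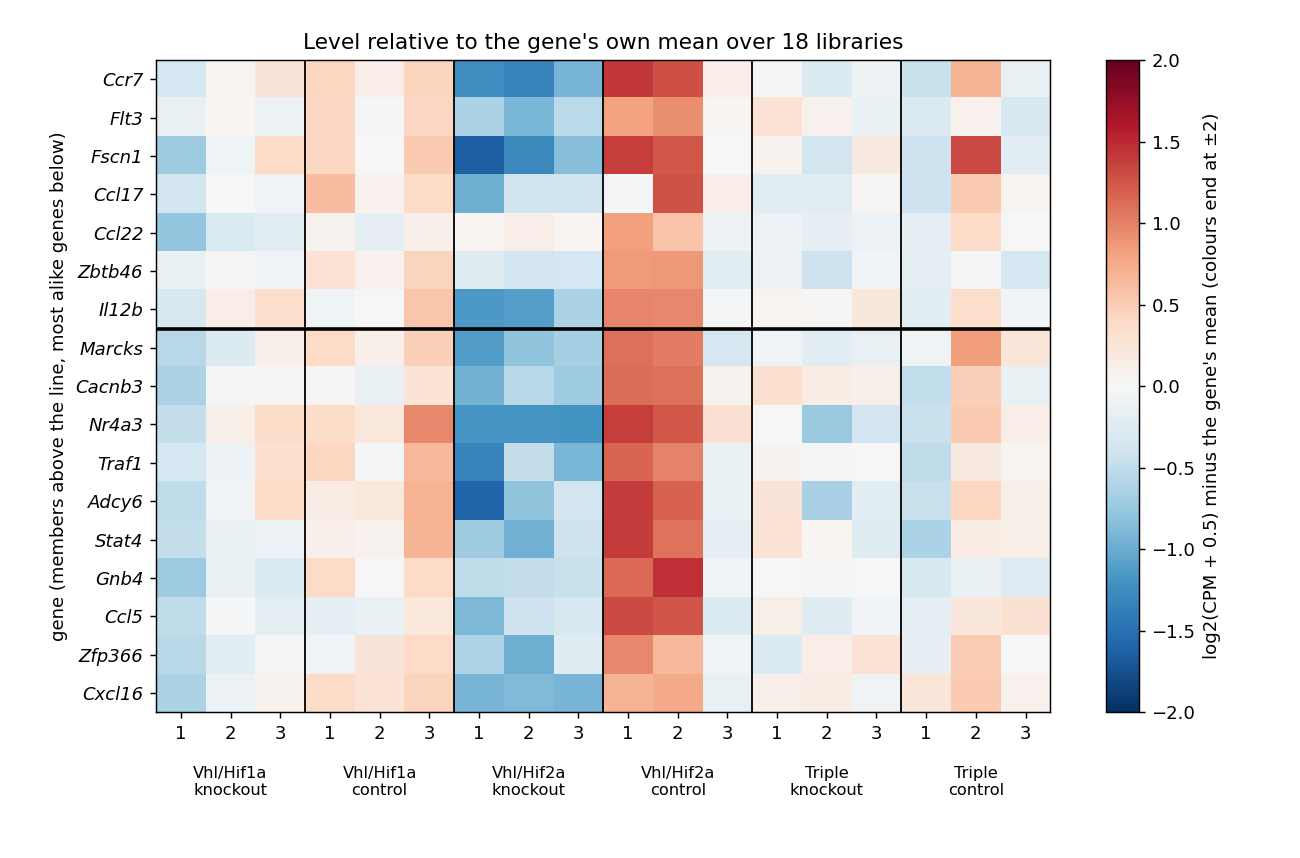
Level of the 7 genes (above the line) and of the 10 genes with the most alike levels (below it) in each library, as log2(CPM + 0.5) minus the gene's own mean over 18 libraries. Libraries 1 and 2 of the Vhl/Hif2a control are high in nearly all rows, and library 3 is near the mean.

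Most genes that act directly with the 7 had few or no counts, and of 11 such partners 3 were tested. The CCR7 ligands Ccl19 and Ccl21a and the other IL-12 chain, Il12a, had 0 counts in all 18 libraries, which allows 3 counts over all libraries together, or up to 0.0062 CPM. Ccr4, the receptor for CCL17 and CCL22, had 11 counts over the 18 libraries, and the decoy receptors Ackr4 and Ackr2 had 27 and 2. The IL-23 chain Il23a had 17 counts and the receptor chain Il12rb1 had 14. Il12rb2, the other chain of the IL-12 receptor, was expressed at 33.2 to 48.6 CPM and was lower in the libraries labelled Vhl/Hif2a knockout, at 34.6 ± 1.10 CPM against 44.8 ± 1.64 CPM in their controls (SD, n = 3 each, log2 fold change -0.37 ± 0.08, edgeR adjusted p = 0.00396). Flt3l, the FLT3 ligand, averaged 2.38 ± 0.227 CPM in these knockout libraries and 2.29 ± 0.885 CPM in their controls, and Ebi3, which pairs with chains of the IL-12 family, averaged 1.48 ± 0.333 CPM in the knockout libraries and 1.84 ± 0.403 CPM in the controls, and neither passed. In the Vhl/Hif1a and triple knockouts 0 of the 3 were called by edgeR, and Flt3l and Il12rb2 had an unadjusted p under 0.05 in the Vhl/Hif1a knockout. DESeq2 called Il12rb2 lower there (-0.28, adjusted p = 0.0259) and none of the 3 in the triple knockout.

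Other genes of migratory dendritic cells fell in part. Of 40 listed, 35 were tested. In the libraries labelled Vhl/Hif2a knockout 13 of the 35 were called lower and 1 higher, against 7.01% of all genes lower and 14.7% in either direction. The median log2 fold change of the 35 was -0.25. With 1 library left out, 10 to 15 were called lower, and without controls 1 and 2 of that cross 0 were lower and 1 higher. Cacnb3, a calcium channel subunit, averaged 1.82 ± 0.313 CPM in those libraries and 6.36 ± 2.45 CPM in their controls (log2 fold change -1.80 ± 0.32, edgeR adjusted p = 7.82e-04). Mreg fell by 1.04 ± 0.19 on the log2 scale (edgeR adjusted p = 0.00122), and Icosl, a costimulatory ligand, by 0.57 ± 0.10 (adjusted p = 9.4e-04). Cd83, a maturation marker, was instead higher, at 79.2 ± 9.08 CPM against 62.2 ± 5.96 CPM (0.35 ± 0.10, edgeR adjusted p = 0.0202), a call lost in 3 of 6 fits that left out 1 library. The summed level of the 40 genes overlapped between the groups, at 1678 to 1957 CPM in these knockout libraries and 1772 to 2096 CPM in their controls. Net1, Cd274 and Tmem123, with medians of 672, 220 and 170 CPM over the 18 libraries, made up much of this sum. In the Vhl/Hif1a knockout Icosl and Cd80 were called lower and Il15 higher, but with 1 library left out Icosl and Il15 were each called in 1 of 6 fits and Cd80 in 0 of 6, and in the triple knockout 0 of the 35 were called.

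Genes shared by conventional dendritic cells were also lower in part in the Vhl/Hif2a cross. There 7 of 18 tested fell and none rose (1 to 8 lower with 1 library left out, and 0 without controls 1 and 2), among them Btla (log2 fold change -2.22 ± 0.56, edgeR adjusted p = 0.0119), H2-Oa (-1.11 ± 0.28, adjusted p = 0.0138) and Jaml (-1.60 ± 0.43, adjusted p = 0.0191), and their summed level was 669 to 686 CPM in the knockout libraries against 706 to 722 CPM in the controls. With 1 library left out, Btla was called in 4 of 6 fits, H2-Oa in 5 and Jaml, whose groups overlapped, in 3, with a Jaml log2 fold change of -2.28 to -0.95. The part of this difference in the changes of the 7 genes was not tested. Of the list for the subset cDC1 5 of 15 tested fell and 1 rose, with sums of 1576 to 1695 CPM in the knockout libraries and 1686 to 1784 CPM in the controls. Of that for cDC2 1 of 13 fell and 1 rose, with sums of 2713 to 2894 CPM against 2938 to 3037 CPM. Spi1 carried much of the shared sum, Naaa, Wdfy4 and Ppt1 most of the cDC1 sum, and Sirpa most of the cDC2 sum. Their medians over the 18 libraries were 420, 528, 561, 375 and 2142 CPM, in this order. Plasmacytoid genes had 2 of 7 lower and 1 higher, but Tlr7 and Runx2 made up most of their sum and Siglech, Ccr9, Ly6d and Spib had too few counts to test, Langerhans genes 0 of 4 in either direction, and transcription factors of dendritic cells 3 of 20 lower (Nfkb1, Stat3 and Irf8) and 1 higher (Nfil3). With 1 library left out, Nfkb1 was called in 6 of 6 fits, Nfil3 in 5, Stat3 in 3 and Irf8 in 0. Beside these list counts, 7.01% of all genes were called lower in this cross with all libraries, and 14.7% in either direction. Without controls 1 and 2 of the cross, 1 cDC1 gene, 1 plasmacytoid gene and 0 of the cDC2 genes, Langerhans genes and transcription factors were lower. Some markers of these subsets were low over the 18 libraries. Xcr1 ran between 0.261 and 0.836 CPM, Clec9a between 0.274 and 0.971 CPM, Cd209a between 0.124 and 1.08 CPM, and Siglech was at 0 in 2 libraries. Other genes of the cDC1 and cDC2 lists were higher, such as Batf3 at 1.85 to 7.28 CPM, Irf4 at 2.51 to 8.41 CPM and Tlr3 at 10.1 to 20.9 CPM. Xcr1 averaged 0.332 ± 0.0626 CPM in the libraries labelled Vhl/Hif2a knockout and 0.766 ± 0.0708 CPM in their controls and did not pass (edgeR adjusted p = 0.0587), while Clec9a averaged 0.691 ± 0.107 CPM in the knockout libraries and 0.739 ± 0.23 CPM in the controls (adjusted p = 0.92).

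Of 7 MHC class II genes 6 rose in the Vhl/Hif1a knockout, and their sum was 7611 to 9864 CPM in the knockout and 647 to 1308 CPM in its control, while the 7 genes described here did not pass. Shared dendritic cell genes had 4 of 18 higher, among them Ciita, H2-Ob and H2-Oa, which act in MHC class II presentation. In this cross 1 of 15 cDC1 genes (Ppt1) and 1 of 7 plasmacytoid genes (Cd300c) fell. So did 1 of 13 cDC2 genes and 1 of 4 Langerhans genes, and both were the same gene, Epcam. With 1 library left out, Epcam was called in 6 of 6 fits and Ppt1 and Cd300c in 1 each. Of 20 transcription factors 2 were higher, Id2 (called in 6 of 6 such fits) and Nfil3 (in 1 of 6). Over all genes, 3.64% were called in either direction in this cross. In the libraries labelled Vhl/Hif2a knockout 2 of the 7 MHC class II genes fell (0 to 4 with 1 library left out), with sums of 725 to 1020 CPM against 782 to 1539 CPM. In that comparison 7.01% of all genes were called lower. In the triple knockout 0 of the genes on these dendritic cell lists were called.

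Markers of the labelled cell type were abundant: 20 alveolar macrophage genes summed to levels that ran between 31965 and 49247 CPM over the 18 libraries. Chil3, a secreted chitinase-like protein gene of alveolar macrophages, was the most abundant of them in the Vhl/Hif2a cross, with 25041 ± 1421 CPM in the libraries labelled Vhl/Hif2a knockout and 18621 ± 2260 CPM in their controls (log2 fold change 0.43 ± 0.12, edgeR adjusted p = 0.0283). This Chil3 call was lost in 3 of 6 fits that left out 1 library. Without Chil3 the sums overlapped, at 19895 to 21089 CPM in these knockout libraries and 18120 to 20216 CPM in their controls. Of the 20 genes, Chil3 included, 6 were higher and 2 lower. With 1 library left out, 3 to 5 were higher and 1 to 2 lower. Of all genes, 14.7% were called in either direction in this cross. Itgax, which encodes the CD11c used for selection and for the Cre driver, averaged 2144 ± 135 CPM in the libraries labelled Vhl/Hif2a knockout and 1568 ± 24.9 CPM in their controls, and 2149 ± 58.0 against 1364 ± 9.80 CPM in the triple knockout and its control. Listed monocyte genes, which also include Chil3, had 3 of 11 higher and 2 lower in the Vhl/Hif2a cross, and without Chil3 they summed to 600.7 to 629.7 CPM in the knockout libraries and 622.2 to 676.4 CPM in the controls. The part of these shifts in the changes of the 7 genes was not tested.

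Markers of lymphocytes were close to 0. Summed T cell genes lay between 0.298 and 1.43 CPM in the Vhl/Hif2a cross, B cell genes between 0.568 and 1.28 CPM, NK and innate lymphoid genes between 1.46 and 4.90 CPM, and basophil and mast cell genes between 0 and 0.279 CPM. Of these lists 1 gene, Ighm, was called lower in the libraries labelled Vhl/Hif2a knockout, on 166 counts over the 18 libraries, and it was called in 1 of 6 fits with 1 library left out. Neutrophil genes had 2 of 6 lower (Cxcr2 and Csf3r) and 1 higher (S100a8) in that cross, with sums of 126 to 151 CPM in the knockout libraries and 122 to 193 CPM in the controls. Csf3r, Mmp8 and Cxcr2, with medians of 69.4, 50.4 and 13.3 CPM over the 18 libraries, made up most of this sum. Ly6g, Camp, Ngp and Mmp9 had too few counts to test. Epithelial genes had 2 of 7 higher, Cdh1 and Krt19 (Krt19 in 4 of 6 fits with 1 library left out), with sums of 1325 to 1439 CPM against 997 to 1178 CPM. Krt19, Epcam and Cdh1, with medians of 611, 186 and 124 CPM over the 18 libraries, made up nearly all of it. Krt8, Krt18 and Sftpb had too few counts to test. Of all genes, 14.7% were called in either direction in this cross, 3.64% in the Vhl/Hif1a knockout and 0.0388% in the triple knockout. In the Vhl/Hif1a knockout 1 neutrophil gene was higher and 3 lower, and 2 monocyte genes were higher and 2 lower. The 1 epithelial gene that was lower there was Epcam, which is also on the cDC2 and Langerhans lists. In the triple knockout 1 monocyte gene, Itgam, and 1 alveolar macrophage gene, Itgax, were higher. With 1 library left out, 0 monocyte genes and 1 alveolar macrophage gene were higher in each of 6 fits. In the Vhl/Hif1a knockout 1 alveolar macrophage gene was higher (Fabp4, called in 6 of 6 such fits) and 1 lower (Siglecf, in 1 of 6).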

How the data were processed

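PolyA RNA was sequenced from 18 libraries of mouse alveolar macrophages with a directional kit, per the labels' protocols. The deposited table holds expected counts per gene: 89.25% of its values are whole, and the unit was read from the values. The counting tool, its strand setting and its annotation: not given in the sources used here. The authors used FastQC, cutadapt and STAR with GRCm38, per the submitters' processing notes. Counts were rounded to whole numbers, 12900 of 32789 genes (99.967% of counts) passed filterByExpr, and counts were scaled by TMM. All 18 libraries were fitted in 1 model with 1 coefficient per group by the quasi-likelihood F test of edgeR 4.0.16 (R 4.3.3, limma 3.58.1), with Benjamini-Hochberg adjustment over all tested genes. The SE is the size of the log2 fold change divided by the root of F and is approximate, and 95% intervals use the degrees of freedom of the fit. CPM and log2(CPM + 0.5) were computed from the rounded counts.

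Nothing in the labels says that the libraries of a group came from separate mice, so p-values measure the spread between these libraries, which may be technical. No 2 libraries held identical values. Alternatives were other size factors, 2 other filters, a replicate block, fits on the compared groups alone, DESeq2 1.42.0, each library left out and, added after seeing the data, controls 1 and 2 of the Vhl/Hif2a cross left out and 2 list sums without Chil3. The test was also tried on simulated data. Lengths and positions come from GENCODE on GRCm38 and promoter sequences from RefSeq on GRCm38.p6.

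The 7 genes and 17 other gene lists (222 symbols, of which 1, Amica1, was not found) were chosen with earlier results of these data known. Named by rule were the 7 genes, all partners and the 10 most alike genes per profile. For the other lists the rule took up to 3 called genes per list and direction with the lowest adjusted p. Not all of these are named above. Those left out include Pacsin1 (log2 fold change -3.93) and Tnfsf9 (4.65) in the Vhl/Hif2a cross and F13a1 (5.27) in the Vhl/Hif1a knockout. Xcr1, Clec9a, Cd209a and Siglech, and Tlr7, Runx2, Ccr9, Ly6d and Spib as carriers or members of a sum, were named after their values were seen. Net1, Cd274, Tmem123, Spi1, Wdfy4, Sirpa, Batf3, Irf4, Tlr3, Ly6g, Camp, Ngp, Mmp9, Krt8, Krt18 and Sftpb were named in the same way.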

Additional observations from a re-analysis of the deposited data

Results flagged for a closer look

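The changes of 3 genes differed between crosses by a test of the difference itself (edgeR, adjusted over all 12900 genes). On the log2 scale, the change in the libraries labelled Vhl/Hif2a knockout minus that in the triple knockout was -2.15 for Ccr7, -1.98 for Flt3 and -2.90 for Il12b. The change in the libraries labelled Vhl/Hif2a knockout minus that in the Vhl/Hif1a knockout was -2.04 for Ccr7 and -2.64 for Il12b. In the Vhl/Hif2a cross each of the 3 genes was lower in all 3 knockout libraries than in every control. All 5 differences share the libraries of that cross, and with its controls 1 and 2 left out none of the 5 was called.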

How the results depend on the processing

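With other size factors, either other filter, the replicate block or DESeq2, 6 of the 7 genes were called in the libraries labelled Vhl/Hif2a knockout. The fit on the compared groups alone lost Ccl17 (-1.28, edgeR adjusted p = 0.0557) and Zbtb46 (-1.17, adjusted p = 0.0809). Without controls 1 and 2 of that cross (chosen after seeing the data), 789 genes and 1 of the 7 were called, and Ccl22 was at 0.18. The difference from the Vhl/Hif1a cross then called 170 genes and 0 of the 7 (Zbtb46 0.33), and that from the triple cross 525 and 0 (Ccl22 0.40). Against the triple control, the remaining Vhl/Hif2a control gave 129 genes, with Fscn1 at -0.48, Ccl22 -0.19, Zbtb46 -0.06 (-0.057) and Il12b -0.12. Against the Vhl/Hif1a control it gave 23 genes, with Ccr7 at -0.22, Flt3 -0.30, Fscn1 -0.36, Ccl17 -0.25, Ccl22 -0.11, Zbtb46 -0.68 and Il12b -0.34. Fits on the compared groups alone called 2 genes in the triple knockout (5 in the reported fit), 1 of the 7 for Vhl/Hif2a minus Vhl/Hif1a, 683 genes for Vhl/Hif2a minus triple, 59 for the Vhl/Hif1a against the triple control and 17 for the Vhl/Hif2a against the triple control. DESeq2 called 11 genes in the triple knockout, 492 for Vhl/Hif2a minus Vhl/Hif1a, 479 for Vhl/Hif1a minus triple, 1293 and 983 (3 of the 7) for the Vhl/Hif1a and Vhl/Hif2a controls against the triple control, and 88 between those 2 controls. The stricter filter called 1 of the 7, Flt3, for the Vhl/Hif2a against the triple control. Zbtb46 in the triple knockout was at 0.0056 (stricter filter), 0.0068 (block) and 0.0055 (compared groups alone), against -0.0025.

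With 1 library left out at a time, genes called ran 282 to 369 (469 with all libraries) in the Vhl/Hif1a knockout, 1227 to 1625 (1895) with 4 to 7 of the 7 in the Vhl/Hif2a cross, and 3 to 4 in the triple knockout. They ran 216 to 280 (315, with 0 to 3 of the 7) for Vhl/Hif2a minus Vhl/Hif1a, 687 to 1406 (1031, with 3 to 5) for Vhl/Hif2a minus triple and 161 to 413 (263) for Vhl/Hif1a minus triple. Between controls they ran 209 to 1211 (697) for Vhl/Hif1a against triple, 142 to 859 (441, with 0 to 3 of the 7) for Vhl/Hif2a against triple and 21 to 33 (44) for Vhl/Hif2a against Vhl/Hif1a. Uncalled log2 changes that turned sign ranged as follows. In the Vhl/Hif1a knockout, Il12b ran -0.39 to 0.18. In the Vhl/Hif2a cross, Flt3l ran -0.23 to 0.31. In the triple knockout, Ccr7 ran -0.48 to 0.18, Fscn1 ran -0.81 to 0.32, Ccl17 ran -0.49 to 0.037, Zbtb46 ran -0.11 to 0.13, Il12b ran -0.079 to 0.38, Flt3l ran -0.17 to 0.063, Ebi3 ran -0.47 to 0.25 and Il12rb2 ran -0.13 to 0.00036. For Vhl/Hif2a minus Vhl/Hif1a, Ccl22 ran -0.21 to 0.22. For Vhl/Hif2a minus triple, Ccl22 ran -0.41 to 0.015. For Vhl/Hif1a minus triple, Ccr7 ran -0.54 to 0.12, Fscn1 ran -0.75 to 0.38 and Il12b ran -0.53 to 0.083. For the Vhl/Hif1a control against triple control, Fscn1 ran -0.43 to 0.70, Ccl22 ran -0.20 to 0.091 and Il12b ran -0.12 to 0.50. For the Vhl/Hif2a control against triple control, Ccl17 ran -0.043 to 0.83. For the Vhl/Hif2a control against Vhl/Hif1a control, Ccl17 ran -0.33 to 0.48.

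Deviations of same-numbered knockout and control libraries had correlations of -0.27 to 0.225, and those of differently numbered ones -0.295 to 0.282. With deviations of 3 libraries from their own mean, these values cannot decide whether the numbers pair the libraries. With the replicate block, genes called were 427, 1726 and 4 in the Vhl/Hif1a, Vhl/Hif2a and triple crosses, 274, 904 and 213 for the differences between crosses and 507, 341 and 32 between controls. The block changed no call among the 7 genes, and it put Fscn1 at -0.034 for Vhl/Hif1a minus triple. Il12b rests on 5 to 15 counts per library in the libraries labelled Vhl/Hif2a knockout, which limits its precision.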
